A study of Mus musculus with 14 samples.

Results

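The genes Fga, Fgb and Fgg encode the Aα, Bβ and γ chains of fibrinogen, and these 3 genes, of 22180 with a level on the arrays, were followed in the 2 luminal cell populations of the mouse mammary gland. They were chosen because Fgg and Fgb stood among the largest falls from Lu-neg to Lu-pos cells on these same arrays. Fga was added as the remaining chain of the gene cluster. The difference between the populations is therefore given for the chains as a description, with no test.

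Luminal cells were sorted from the glands of adult virgin females, BALB/cByJ JAX and C57Bl/6, aged 4 to 6 months. Neither a transgene nor a treatment is named for them, and which strain a pool came from is not stated there. CD24, an epithelial surface marker, and ICAM-1, an adhesion molecule, separated CD24+ ICAM1- cells (LuNeg, here Lu-neg) from CD24+ ICAM1+ cells (LuPos, here Lu-pos). Antibodies to CD45 and CD31 marked blood and endothelial cells, and the sorted cells were at least 97% pure by the methods. Each population was sorted from 7 pools of at least 12 glands, which gave 7 pairs of samples and 14 Affymetrix whole-transcript arrays. All values are log2 intensities as deposited, and a difference of 1 is a doubling.

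Fibrinogen is a soluble plasma protein built from paired copies of the Aα, Bβ and γ chains. Thrombin removes short peptides from Aα and Bβ, and the product polymerises into fibrin, the mesh of a blood clot. Hepatocytes are its main source, where C/EBP factors drive the genes and interleukin-6, acting through STAT3, raises them in the acute-phase response. Fibrinogen binds integrins and ICAM-1, the molecule used for the sort here.

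The 3 genes lie side by side on mouse chromosome 3 in the order Fgg, Fga, Fgb. Fgg and Fga share a strand, and Fgb is read from the other. The 250 bases before each RefSeq start (GRCm38.p6) are shown because Fgb and Fgg moved together over the pools while Fga gave no signal above background. Each reads 5′ to 3′ on the strand of its gene, and capitals mark matches to the motifs named after the sequences. Fgg lies at chr3:83007474-83007723 on the plus strand, Fga at chr3:83025903-83026152 on the plus strand and Fgb at chr3:83049864-83050113 on the minus strand.
Fgg: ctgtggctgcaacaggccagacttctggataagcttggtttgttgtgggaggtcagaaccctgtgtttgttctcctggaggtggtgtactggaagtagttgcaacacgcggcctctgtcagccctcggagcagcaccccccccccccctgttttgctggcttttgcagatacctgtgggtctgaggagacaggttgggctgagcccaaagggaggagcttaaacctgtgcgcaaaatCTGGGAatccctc
Fga: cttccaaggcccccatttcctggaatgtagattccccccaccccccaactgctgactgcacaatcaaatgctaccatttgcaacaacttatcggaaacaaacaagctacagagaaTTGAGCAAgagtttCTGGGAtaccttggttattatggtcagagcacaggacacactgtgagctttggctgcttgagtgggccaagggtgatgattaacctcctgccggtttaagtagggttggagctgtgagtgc
Fgb: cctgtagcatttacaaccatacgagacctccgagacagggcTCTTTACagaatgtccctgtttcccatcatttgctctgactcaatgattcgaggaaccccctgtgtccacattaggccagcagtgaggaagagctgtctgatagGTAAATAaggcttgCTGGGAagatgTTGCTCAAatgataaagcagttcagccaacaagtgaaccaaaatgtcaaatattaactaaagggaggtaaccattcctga

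The motifs were written down after these sequences had been read, and both strands were searched. The core of the interleukin-6 response element, CTGGGA, occurred once before each of the 3 genes, beginning 13 bases before the start of Fgg, 121 before that of Fga and 91 before that of Fgb. It occurs in 27% of all 32851 promoter windows of this length. The C/EBP motif TTNNGCAA occurred once before Fga and once before Fgb and not before Fgg, against 9.56% of all windows. The forkhead motif TNTTTAC, of the family of FOXA factors, occurred 2 times before Fgb only (10.9% of all windows). The letters of a TATA box (TATANA, 22.6%), of the estrogen response element (GGTCA and TGACC parted by 3 bases, 0.0639%) and of the element shared by progesterone and glucocorticoid receptors (GNACA and TGTNC parted by 3 bases, 0.387%) were not in these 3 windows. No 2 of the matches overlapped, and a match is a run of letters and not a measured site.

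Fgb and Fgg lay above the background level on all 14 arrays and were lower in Lu-pos in every pool. Their Lu-pos values of pool 3, at 4.31 and 4.38, stood closest to that level. Fga stayed below the background level on every array. Background was set at 3.73, below which 95% of 1394 olfactory and vomeronasal receptor genes had their mean. Each chain had 1 probe set, and 2 of the 3 genes, Fgb and Fgg, had a mean above this level.

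Fgb ranged over the 7 Lu-neg samples from 8.12 to 10.78, with a median of 9.27, and over the 7 Lu-pos samples from 4.31 to 9.30, with a median of 7.02. The Lu-neg sample of pool 1 was the highest of the 14 and the Lu-pos sample of pool 3 the lowest. The ranges overlapped, since 2 Lu-pos samples, those of pools 1 and 5, lay within the Lu-neg range. The mean was 9.29 ± 0.93 in Lu-neg and 7.10 ± 1.62 in Lu-pos (SD, n = 7 each).

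Fgg ranged from 8.13 to 10.88 in Lu-neg, with a median of 9.48, and from 4.38 to 9.01 in Lu-pos, with a median of 7.10. The same samples stood at the ends, pool 1 of Lu-neg and pool 3 of Lu-pos, and again 2 Lu-pos samples, those of pools 1 and 5, lay within the Lu-neg range. The mean was 9.35 ± 1.04 in Lu-neg and 7.10 ± 1.63 in Lu-pos (SD, n = 7 each). Fga lay between 2.11 and 2.45 in Lu-neg and between 2.17 and 2.99 in Lu-pos. No Fga value reached the background level on any of the 14 arrays. Of the receptor genes that set this level, 46.1% had a lower mean than Fga. Its probe set was not tested on a tissue known to hold the transcript, so whether it can report Fga was not tested.

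**Figure D1:**
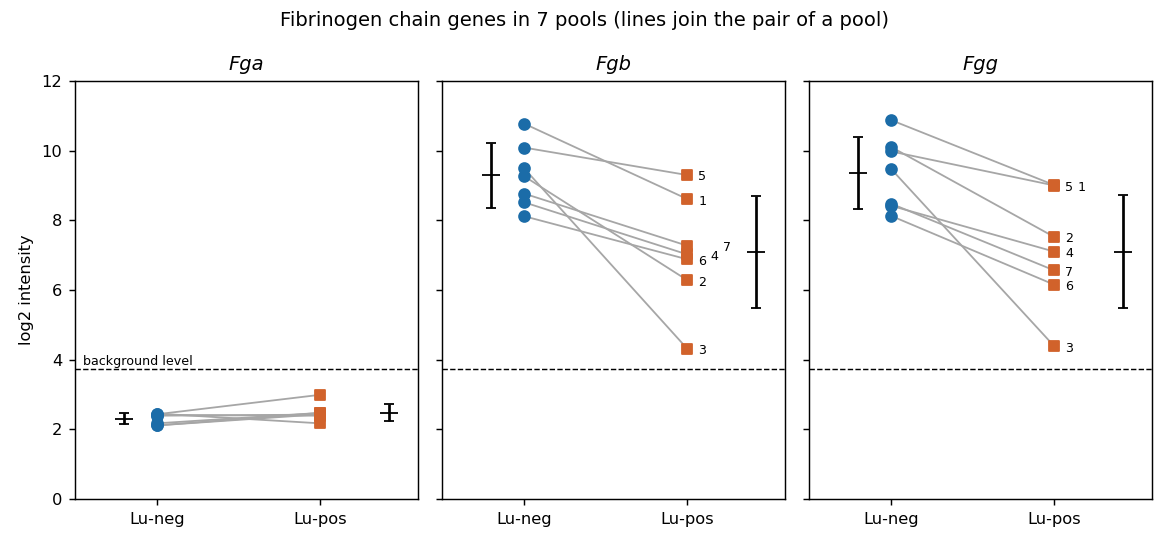
Log2 intensity (vertical axis) of Fga, Fgb and Fgg on the 14 arrays, Lu-neg on the left and Lu-pos on the right, where lines join the pair of a pool, numbers name the pool beside the Lu-pos points of Fgb and Fgg, bars give the mean ± SD (n = 7) and a dashed line marks the background level of 3.73. Every line of Fgb and Fgg falls to the right, most steeply in pool 3, and all points of Fga lie under the dashed line.

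Within pairs, Fgb was lower in Lu-pos by between 0.79 (pool 5) and 5.19 (pool 3) on the log2 scale, and Fgg by between 0.98 (pool 5) and 5.10 (pool 3). The mean difference, Lu-pos minus Lu-neg, was -2.20 ± 1.5 for Fgb and -2.25 ± 1.36 for Fgg (SD, n = 7 pairs), or 4.59-fold and 4.76-fold lower. In bulk samples, fewer cells that express a chain and less RNA per cell cannot be told apart. Both chains were lower in 7 of 7 pairs, as were 7.11% of all genes. As the chains were chosen on this contrast, nothing is read from that count. In pool 3 the difference came to 36.5-fold for Fgb and 34.3-fold for Fgg, and in pool 5 to 1.73-fold and 1.97-fold. Fga differed by 0.18 ± 0.28, higher in 5 of 7 pairs, between values that all lay under background.

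Over all genes the arrays of pools 1 to 3 and of pools 4 to 7 stood apart, which no label explains. Deviations from the population means correlated at a mean r of 0.0624 between arrays of different pools within the first set, 0.0387 within the second and -0.208 across the sets. Centring on means of the same arrays by itself lowers r between pools, so nothing is read from the sign of -0.208. Fgb was lower in Lu-pos by a mean of 3.45 in pools 1 to 3 and 1.26 in pools 4 to 7, and Fgg by 3.19 and 1.55. The Lu-neg level of Fgb was 9.85 ± 0.81 (SD, n = 3) in pools 1 to 3 and 8.88 ± 0.85 (SD, n = 4) in pools 4 to 7, and that of Fgg 10.16 ± 0.70 and 8.75 ± 0.83. The Lu-pos level of Fgb was 6.40 ± 2.15 against 7.62 ± 1.13, and that of Fgg 6.97 ± 2.36 against 7.20 ± 1.26. Without pool 3 the mean differences were -1.70 for Fgb and -1.78 for Fgg.

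Few genes varied as widely between pools as these chains. Over the 11029 genes above background, the SD in Lu-pos samples ranked number 19 for Fgg and number 20 for Fgb, at 1.63 and 1.62 against a median of 0.311. In Lu-neg samples it ranked number 136 for Fgg and number 205 for Fgb, at 1.04 and 0.93 against a median of 0.285. The mean level of Fgb was above that of 98.6% of the 22180 genes in Lu-neg and 91.2% in Lu-pos, and that of Fgg above 98.7% and 91.2%. These ranks are a description on the intensity scale, in which probe sets differ in brightness.

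Over the deviations of samples from the mean of their own population, Fgb and Fgg moved together. Such deviations do not enter the difference between the population means. They may still not be free of the choice, since the genes were chosen with earlier results of these data known. Over the 7 Lu-neg samples Pearson's r between Fgb and Fgg was 0.937 (exact permutation p = 0.00278, adjusted p = 0.0286). Over the 7 Lu-pos samples r was 0.911 (exact permutation p = 0.00893, adjusted p = 0.0357). These tests were two-sided, with Benjamini-Hochberg adjustment over a family of 12 relations. Spearman's rho was 0.893 and 0.714 in the same order (exact permutation p = 0.0123 and 0.0881, adjusted p = 0.0905 and 0.151), and neither passed. Without the 2 samples farthest from the median of the first-named gene, r over the other 5 was 0.837 and 0.673 (exact permutation p = 0.0917 and 0.242). The relation thus passed only with those samples, and 5 samples also allow fewer permutations. After centring on the means of pools 1 to 3 and of pools 4 to 7, r was 0.929 and 0.964, with exact permutation p = 0.0278 and 0.0208 from the 144 permutations within these sets. Both calls were then lost, at an adjusted p of 0.0667 each by exact permutation. The 144 permutations limit how small p can be, so nothing is read from this loss. Over the 7 pair differences, the values that chose the genes, r was 0.963, and it was 0.595 without the 2 farthest pools. Relations over pair differences are part of the family of 12, so the adjusted p of the other relations depends on them. Because the genes were chosen on these differences, nothing is read from their own test.

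The calls were also lost when most single pools were left out, where fewer samples allow fewer permutations. In Lu-neg r kept between 0.889 and 0.994 when a pair was left out, and its adjusted p by exact permutation rose to between 0.05 and 0.158 without pool 1, 3, 4, 5 or 6. In Lu-pos r kept between 0.799 and 0.966, and its call was lost without any pool but pool 7, with adjusted p by exact permutation up to 0.222 (without pool 1). Without pool 2 the call was lost although r was 0.966, above its value over all pools.

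**Figure D2:**
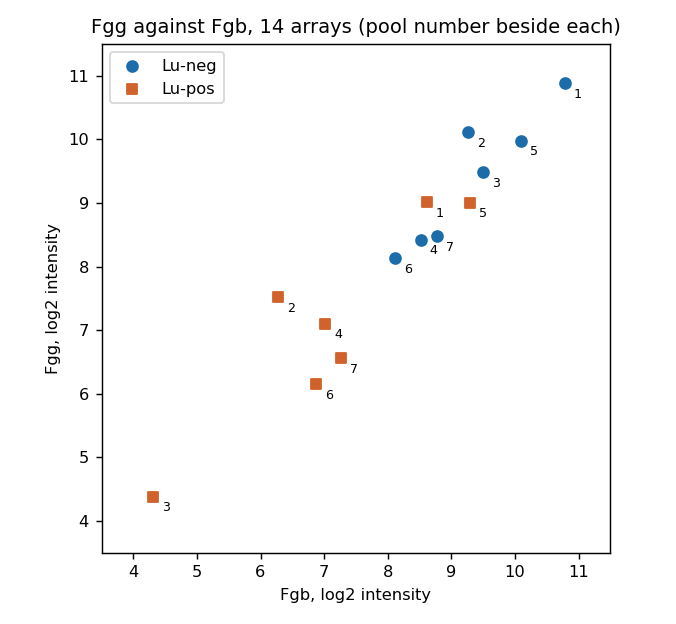
Fgg (vertical axis) against Fgb (horizontal axis), both in log2 intensity, on the 7 Lu-neg arrays (circles) and the 7 Lu-pos arrays (squares), with the pool number beside each point. The points rise together from the Lu-pos sample of pool 3, at 4.31 and 4.38, to the Lu-neg sample of pool 1, at 10.78 and 10.88.

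Within an array Fgb minus Fgg kept between -0.84 and 0.29 in Lu-neg (SD 0.364) and between -1.24 and 0.73 in Lu-pos (SD 0.687). Both SDs were below those of either chain, which spread by 0.93 to 1.63. Ranked by r with Fgg over the deviations of all 14 arrays, Fgb was number 1 of 11028 genes above background (r = 0.917), and Fgg was number 4 for Fgb. The median r of these genes with Fgg was -0.006. Within 1 population, with 7 arrays, the partner chain ranked between number 15 and number 35. These correlations share the arrays and any effect of RNA amount or amplification on them, which was not tested.

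No relation of Fga passed after adjustment over the 12 relations. Its r with Fgb was 0.668 in Lu-neg and -0.206 in Lu-pos (exact permutation p = 0.104 and 0.633), and with Fgg 0.660 and -0.421 (exact permutation p = 0.107 and 0.354). The smallest p of these by rank was that of Fga with Fgg in Lu-pos, with Spearman's rho = -0.883 (exact permutation p = 0.0151, adjusted p = 0.0905). All Fga values lay below background, which leaves little signal to follow. The level of a chain in the Lu-neg sample was also set against that in the Lu-pos sample of the pool. There r was 0.409 for Fgb (exact permutation p = 0.371) and 0.562 for Fgg (exact permutation p = 0.191), and neither passed. After centring on the means of the pool sets these were 0.841 for Fgb (exact permutation p = 0.0486, adjusted p = 0.0952) and 0.898 for Fgg (exact permutation p = 0.0139, adjusted p = 0.0667).

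The genes whose deviations over the 14 arrays were most like the mean of the 3 chains were Trp53inp2 (r = 0.933), which acts in autophagy, the phosphatase gene Dusp7 (0.901), the potassium channel gene Kcnh1 (0.887), the imprinted noncoding RNA Peg13 (0.884), the stress-response gene Nupr1 (0.878), the interleukin-18 receptor gene Il18r1 (0.874), the anion channel subunit gene Lrrc8b (0.870) and LOC100040974 (0.870). Of these 8 genes, 7 were also among the 8 most like the mean of Fgb and Fgg, a profile added after Fga had been seen to lie below background. The 99th percentile of r over all ranked genes was 0.683. Without centring, Dusp7 (0.945), Trp53inp2 (0.932), Kcnh1 (0.929), Nupr1 (0.929) and Lrrc8b (0.922) were the most alike. These r values are a measure of likeness over 14 arrays and carry no test.

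Trp53inp2 ranged from 7.04 to 8.0 in Lu-neg, highest in pool 1 and lowest in pool 4. In Lu-pos it ranged from 5.83 to 6.88, highest in pool 5 and lowest in pool 3. Both chains were likewise highest in pool 1 of Lu-neg and lowest in pool 3 of Lu-pos. Their lowest Lu-neg values, however, were in pool 6 (8.12 and 8.13), and in Lu-pos Fgb was highest in pool 5 but Fgg in pool 1. The next count is of Trp53inp2. The 2 groups of Trp53inp2 did not overlap, a pattern in this direction that 1.67% of all genes had.

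The neighbours of the cluster did not move with it as a block. Of the 10 measured protein-coding genes nearest to it, 5 on each side, 4 lay above the background level. In a limma fit blocked on the pair, 1 was lower and 3 were higher in Lu-pos at an adjusted p under 0.05, against 7.19% of all genes lower and 4.35% higher. Of all called genes 37.7% were higher, or 65.5%, 48.6% and 53.6% when arrays were scaled to housekeeping genes, to these without Hprt and to the 75th percentile. All 5 neighbours on the Fgg side, Gucy1a1, Map9, Npy2r, Rbm46 and Lrat, had means below background and were not called.

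Plrg1, next to Fgb and read away from it on the other strand, encodes a component of the splicing machinery. It ranged from 8.16 to 8.49 in Lu-neg, with a median of 8.29, and from 6.77 to 7.53 in Lu-pos, with a median of 7.46. The groups did not overlap, and Plrg1 was lower in Lu-pos in 7 of 7 pairs. The change was -1.02 on the log2 scale, 2.02-fold, with a standard error of 0.10 (adjusted p = 0.000583, limma). Over the pools Plrg1 spread less than the chains, with an SD of 0.12 in Lu-neg and 0.32 in Lu-pos, and its deviations had r = 0.489 with the mean of Fgb and Fgg, as a description over 14 arrays.

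Beyond Plrg1 on the same side lie Dchs2, below background, and 3 genes that were higher in Lu-pos. Tlr2, a receptor for bacterial lipoproteins, rose by 1.12 (standard error 0.18, adjusted p = 0.00409 from limma) in 7 of 7 pairs. Sfrp2, a secreted Wnt modulator, had a mean of 3.55 in Lu-neg, below background, and of 4.54 in Lu-pos, and it passed the background level only through Lu-pos. Sfrp2 rose by 0.99 (standard error 0.26, adjusted p = 0.0408) and Tmem131l by 0.46 (standard error 0.12, adjusted p = 0.0407), each in 6 of 7 pairs. The call of Sfrp2 was lost without any of pairs 1, 2, 3, 6 or 7 (adjusted p between 0.0772 and 0.10), and that of Tmem131l without any of pairs 1, 2, 3, 4, 6 or 7 (adjusted p between 0.0672 and 0.105), without the pairing (0.0624) and with the trend and robust options (0.0532).

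**Figure D3:**
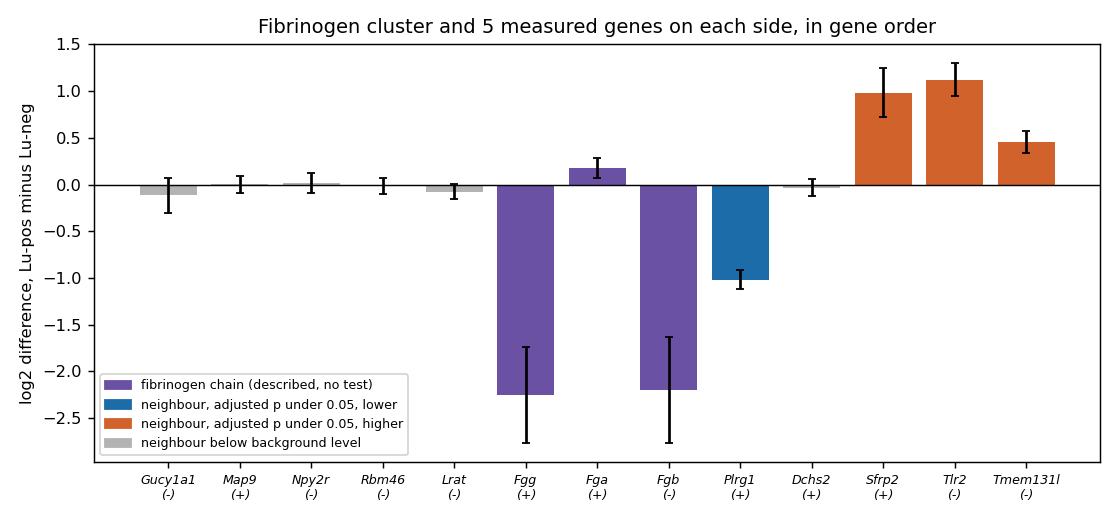
Log2 difference, Lu-pos minus Lu-neg (vertical axis), for the 3 fibrinogen genes and the 5 measured protein-coding genes on each side, in gene order with the strand under each name. Error bars are standard errors, from the pair differences for the chains and from limma for the neighbours. Fgg and Fgb stand near -2.25 and -2.20 with Fga, below background, between them at 0.18, and Plrg1 stands at -1.02.

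Most other measured genes of clotting had means below the background level in both populations. Whether their probe sets can report the transcripts was not tested. Of 24 measured genes of the coagulation cascade, 6 lay above background, 2 were lower and none was higher in Lu-pos by limma (7.19% and 4.35% of all genes), and the median log2 fold change was -0.015 against -0.021 over all genes. Proc, the zymogen of the anticoagulant protease protein C, ranged from 5.07 to 6.83 in Lu-neg, with a median of 6.07, and from 3.56 to 4.98 in Lu-pos, with a median of 4.05. It fell by 1.76 (standard error 0.22, adjusted p = 0.0014), in 7 of 7 pairs. Of the called genes named from this and the following lists, Icam1, Itga5, Angpt1 and Sec23b moved one way in 6 of 7 pairs and the others in 7 of 7. The deviations of Proc had r = 0.791 with the mean of Fgb and Fgg over 14 arrays, the highest of the 6 genes of the list above background. The lowest was -0.213 (Thbd) and the median 0.273. Vwf, which carries factor VIII and tethers platelets, fell by 1.20 (standard error 0.15, adjusted p = 0.00155). The genes of prothrombin (F2), factor V (F5) and factor X (F10) lay below background, while F3, tissue factor, had 9.02 ± 0.14 in Lu-neg and 8.66 ± 0.40 in Lu-pos (SD, n = 7 each; adjusted p = 0.17).

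Among 12 measured genes of fibrinolysis, 6 lay above background and 1 was called lower, near the 7.19% of all genes. Plgrkt, a plasminogen receptor, fell by 0.53 (standard error 0.10, adjusted p = 0.0102 from limma). The list's median log2 fold change was 0.037. The urokinase gene Plau had a log2 fold change of 0.38 (adjusted p = 0.184) and its receptor gene Plaur of 0.07 (adjusted p = 0.812). Of 13 genes that encode receptors and binding partners of fibrinogen, 8 lay above background, 2 were higher and 1 was lower, against 4.35% and 7.19% of all genes, with a median log2 fold change of 0.009. Thbs1, the matrix protein thrombospondin, rose by 2.54 (standard error 0.35, adjusted p = 0.00225), and the fibronectin receptor gene Itga5 fell by 0.63 (standard error 0.14, adjusted p = 0.0184, 0.0518 without pair 3 and 0.0691 under the housekeeping scaling). Icam1 rose by 1.12 (standard error 0.30, adjusted p = 0.0403), but its protein was the basis of the sort, and its call was lost without any of pairs 1, 4, 5, 6 or 7 (adjusted p between 0.0548 and 0.102). The integrin genes Itgav and Itgb1 had log2 fold changes of -0.08 and 0.01 and were not called.

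Of 16 measured genes of proteins with a fibrinogen-like domain, 8 lay above background and 1 was called higher, near the 4.35% of all genes. Angpt1, a ligand of the endothelial receptor Tie2, rose by 1.12 (standard error 0.30, adjusted p = 0.0421 from limma), and its call was lost without any of pairs 1, 2, 3, 5, 6 or 7 (adjusted p between 0.0631 and 0.108). With averaged probe sets the change of Angpt1 was 0.65 (adjusted p = 0.0694). Among 13 measured genes for the assembly and export of secreted proteins, all above background, 3 were lower and 1 was higher, against 13.7% and 8.21% of the genes above background. Pdia6, a disulfide isomerase, fell by 0.57 (standard error 0.13, adjusted p = 0.0189, 0.0533 without pair 2 and 0.0696 under the housekeeping scaling). Sec23b, of the COPII coat, fell by 0.64 (standard error 0.14, adjusted p = 0.0168), and the cargo receptor gene Lman1 by 0.44 (standard error 0.10, adjusted p = 0.022). Tpst1, a tyrosine sulfotransferase, rose by 0.39 (standard error 0.10, adjusted p = 0.0379). The call of Lman1 was lost without any of pairs 1, 3, 6 or 7 (adjusted p between 0.0503 and 0.0604) and under the housekeeping scaling (0.103), this scaling without Hprt (0.0612) and the 75th percentile scaling (0.0542). The call of Tpst1 was lost without any of pairs 1, 2, 3, 5 or 6 (adjusted p between 0.0524 and 0.0976) and with the trend and robust options (0.0573). Median log2 fold changes were -0.059 for the genes of the domain and -0.014 for those of assembly.

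Called genes of other acute-phase proteins went in both directions. Of 19 measured genes, 6 lay above background, 3 were higher and 2 lower in Lu-pos by limma, against 4.35% and 7.19% of all genes, and the median change was 0.019 on the log2 scale. The lipopolysaccharide-binding protein gene Lbp rose by 1.86 (standard error 0.27, adjusted p = 0.0025), the siderophore-binding gene Lcn2 by 1.55 (standard error 0.18, adjusted p = 0.000967) and the ferroxidase gene Cp by 1.44 (standard error 0.24, adjusted p = 0.00483). Hamp, the iron hormone hepcidin, fell by 2.54 (standard error 0.42, adjusted p = 0.00466), to values that in 4 of 7 Lu-pos samples lay below background, and Hp, the hemoglobin-binding haptoglobin, by 1.07 (standard error 0.28, adjusted p = 0.0366). Without the pairing neither fall was called (adjusted p = 0.0636 and 0.169), and that of Hp was lost without any of pairs 1, 2, 3, 4 or 7 (adjusted p between 0.0549 and 0.0795) and under the housekeeping scaling (0.0517). The deviations of the 6 genes above background had r with the mean of Fgb and Fgg from -0.284 (Cp) to 0.589 (Hamp).

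Of 20 measured genes of the interleukin-6 family pathway, 17 lay above background, 4 were higher and 4 lower. Of all genes 4.35% were higher and 7.19% lower, and of the genes above background 8.21% and 13.7%. The list's median change was -0.017 on the log2 scale. The cytokine genes Lif and Clcf1 rose by 1.65 (standard error 0.14, adjusted p = 0.000404 from limma) and 0.96 (standard error 0.19, adjusted p = 0.00973), and Stat3, the transcription factor of the pathway, by 0.40 (standard error 0.07, adjusted p = 0.00559, and 0.0665 without the pairing). The LIF receptor gene Lifr fell by 1.29 (standard error 0.18, adjusted p = 0.00208), the feedback inhibitor gene Socs3 by 1.27 (standard error 0.15, adjusted p = 0.00118) and the kinase gene Jak2 by 0.74 (standard error 0.16, adjusted p = 0.0159). The shared receptor gene Il6st had a log2 fold change of 0.13 (adjusted p = 0.627) and Il6ra of -0.56 (adjusted p = 0.172, and 0.0288 without pair 1). Il6 itself spread widely, at 5.98 ± 1.77 in Lu-neg and 6.14 ± 1.52 in Lu-pos (SD, n = 7 each), and its deviations had r = 0.091 with the mean of Fgb and Fgg. Over the 17 genes above background this r ran from -0.283 (Socs1) to 0.704 (Cntfr), with a median of 0.097. Cntfr had a log2 fold change of -1.51 and was not called (adjusted p = 0.0586 from limma).

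Of 17 measured transcription factor genes known from liver, 7 lay above background, 3 were higher and 2 lower, against 4.35% and 7.19% of all genes, with a median log2 fold change of 0.019. Foxa1, a pioneer factor that also works with the estrogen receptor, ranged from 8.36 to 9.28 in Lu-neg, with a median of 8.54, and from 6.49 to 7.93 in Lu-pos, with a median of 7.24 and fell by 1.39 (standard error 0.19, adjusted p = 0.00208 from limma). Its deviations had r = 0.660 with the mean of Fgb and Fgg, the highest of the 7. The lowest was -0.551 (Nr3c1) and the median -0.346, so most of the list went the other way. Prox1 fell by 0.70 (standard error 0.10, adjusted p = 0.00228). Cebpb and Cebpd, of the C/EBP family, rose by 0.85 (standard error 0.12, adjusted p = 0.00225) and 0.97 (standard error 0.21, adjusted p = 0.0174), and the glucocorticoid receptor gene Nr3c1 by 0.60 (standard error 0.14, adjusted p = 0.0196, and 0.0546 without pair 7). Cebpa, with 5.12 in both populations, was not called (adjusted p = 0.992), and Hnf4a lay below background.

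**Figure D4:**
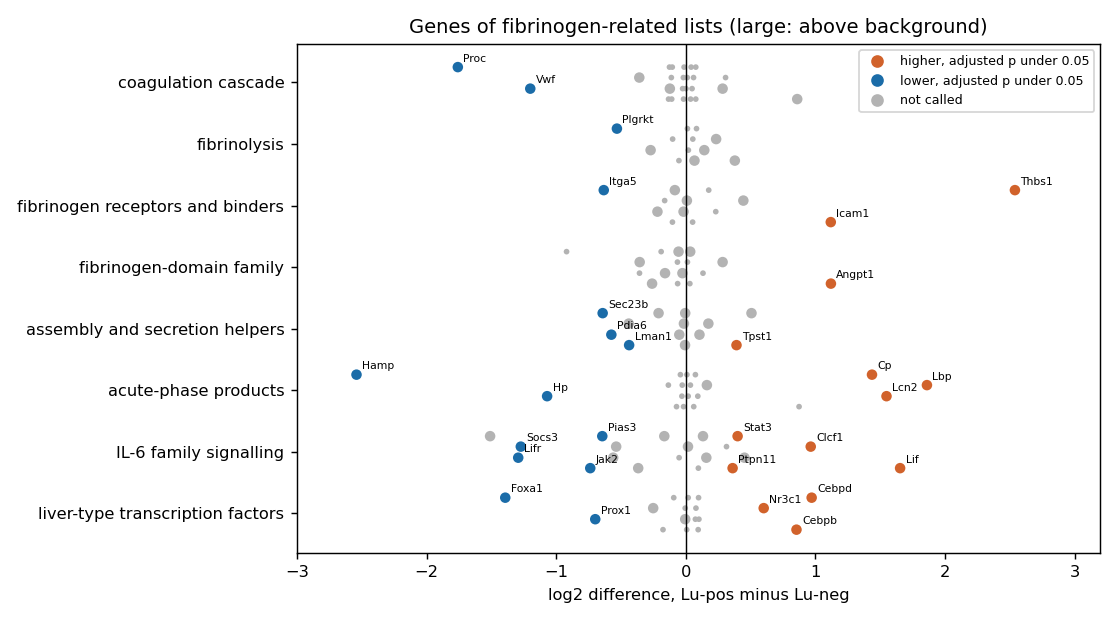
Log2 difference, Lu-pos minus Lu-neg (horizontal axis), of each measured gene in 8 lists around fibrinogen, 1 row per list, with large points above the background level and small points below it, and vertical offsets within a row only to part the points. Coloured points passed an adjusted p under 0.05 from limma and are named, from Hamp at -2.54 to Thbs1 at 2.54, and every named gene is drawn as a large point.

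Levels of cell type markers were also read. The 5 luminal markers had a mean level between 10.5 and 10.8 on every array, and 1 of them, Krt19, fell by 0.49 in Lu-pos (adjusted p = 0.0117, 7 of 7 pairs). By limma all 8 measured hormone-sensing markers were called lower and all 10 luminal progenitor markers higher in Lu-pos. The shares over all genes above background were 13.7% lower and 8.21% higher. Many of these markers, such as Esr1, Pgr, Elf5 and Met, were reported by the paper from these same arrays. Their calls are thus no independent check of the sort. The mean level of the hormone-sensing markers was 7.24 to 7.93 in Lu-neg and 5.27 to 6.60 in Lu-pos. Fgb and Fgg had the higher means in the population with the hormone-sensing markers, and remained above background in Lu-pos.

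The 15 hepatocyte markers had a mean level between 3.05 and 3.2 on every array, with 1 gene, Ahsg, above background, and the albumin gene Alb lay between 2.83 and 3.24. Of 7 measured platelet and megakaryocyte markers 1, Treml1, lay above background, and Pf4 and Itga2b lay below it in their means. Of 10 immune markers 3 lay above background. In Lu-neg and Lu-pos these had means of 5.60 and 6.27 (Cd68), 4.27 and 4.33 (Lyz2), and 4.29 and 4.27 (Nkg7). Ptprc, the gene of CD45, had 3.04 and 2.96. None of these 3 lists had a gene called in either direction by limma. Basal markers had a mean level between 4.14 and 6.75 over the 14 arrays, endothelial markers between 3.51 and 5.80, and fibroblast and adipocyte markers between 4.25 and 5.80, with 0, 1 and 1 gene called lower in Lu-pos. The called endothelial marker was Vwf, given above among the clotting genes, and the called fibroblast marker was Dcn, with means of 9.38 and 8.89 (adjusted p = 0.0117, lower in 7 of 7 pairs by limma). The adipocyte marker Fabp4 had means of 8.47 and 8.36. Pecam1, the gene of CD31, had means of 5.67 in Lu-neg and 5.35 in Lu-pos, with values up to 7.02 and 7.23. It was not called (adjusted p = 0.741 from limma). The part of such cells in the levels of the chains was not tested.

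The level of each marker list was set against the mean of Fgb and Fgg within each population, 18 relations in all, and none passed after adjustment. The largest r was 0.756 for the hormone-sensing markers over the 7 Lu-pos samples (exact permutation p = 0.0641, adjusted p = 0.966, Spearman's rho = 0.429 with exact permutation p = 0.354), and it was 0.0871 without the 2 samples farthest from the median. In Lu-neg r for this list was 0.271 (exact permutation p = 0.556).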

How the data were processed

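RNA from 7 Lu-neg and 7 Lu-pos samples, mapped to population and pool by their titles, was amplified (from 500 pg per the labels, but 1 ng by the paper's methods) and hybridised, 1 array per sample. The authors deposited log2 intensities per probe set, made, by the submitters' processing notes, with RMA in Affymetrix Expression Console (version not given in the sources used here). RMA normalizes all arrays to one distribution and, with amplification, can compress differences. The paper's own analysis, in EASANA with quantile normalization, was not repeated. The values have no depth in reads, and the number of arrays limits their precision. No 2 arrays held identical values.

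Of 41345 probe sets, 23521 had 1 gene symbol, 1820 several and 16004 none in the annotation, and the brightest probe set stood for each of 22180 genes. A RefSeq table (GRCm38.p6) held the gene of 23328 of these 23521 probe sets, and from it gene order, strands and promoters came. The array annotation names no build. Lu-pos was compared with Lu-neg over all genes by limma 3.58.1 in R 4.3.3, with the pair as a block and Benjamini-Hochberg adjustment, and an adjusted p under 0.05 was called. The paper's paired comparison and the series' design give the pairing. Deviations from the population means correlated at 0.166 to 0.256 within the 7 pairs. The Lu-pos arrays of pools 1 and 6 and the Lu-neg array of pool 7 did not correlate best with their partner. Co-variation was tested by exact permutation in Python 3.11.15 with numpy 2.4.6. The scripts were tested on simulated data.

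The 3 genes and the lists were chosen with earlier results of these data known. Named were the chains, the 5 measured neighbours on each side, up to 3 called rises and 3 called falls above background in each list, fixed regulators and defining markers, and the genes most like the chains. Clotting genes below background, other list members given as examples and Il6 were chosen after their values were seen. Alternatives were no pairing, averaged probe sets, 3 scalings, genes above background only, the methods' t-test, eBayes with trend and robust, and leaving out each pair.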

Additional observations from a re-analysis of the deposited data

Results flagged for a closer look

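In 4 of 122 groups of 7 samples, from 61 named genes, 1 sample lay far from the other 6, a gap that chance gives in about 1 of 20 groups. Fga, below background throughout, had a Lu-pos sample of pool 7 at 2.99, against 2.47 for the next. The neighbour Gucy1a1 stood at 5.19 in the Lu-neg sample of pool 2, against 3.64 for the next, and the platelet gene Pf4 at 3.94 in the same sample, against 2.82. The neighbour Lrat stood at 3.16 in the Lu-neg sample of pool 3, against 3.41 for the next. These genes have means below the background level of 3.73. No value of Fgb or Fgg was so far from the others of its population.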

How the results depend on the processing

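Over the alternatives run for the lists and neighbours, 223 counts stayed within 1.5 times, 43 were lower and 4 higher, and for the relations between chains 128 values kept their side of the threshold, 26 lost and 2 gained a call. The relations counted here include those over pair differences, the values that chose the genes. No called value reversed, and the 42 described differences of the chains moved by less than their SD. Scaling to housekeeping genes moved the median of all genes by 0.131. It gave 1 coagulation gene higher (also 1 without Hprt and 1 by the 75th percentile), 0 fibrinogen receptors lower, 2 assembly genes higher and 1 lower, and 1 acute-phase gene lower. The methods' t-test after Benjamini-Hochberg adjustment gave 1 receptor higher and 0 lower, 0 genes of the fibrinogen domain higher, 0 assembly genes in either direction, 1 acute-phase gene lower, 2 genes of the interleukin-6 family higher and 2 lower, 1 liver factor higher and 1 neighbour higher. Averaged probe sets left 0 genes of the fibrinogen domain higher, and eBayes with trend and robust 0 assembly genes higher. Without the replicate block 0 acute-phase genes were lower, and no other count of the lists moved by over 1.5 times. Over all genes the methods' t-test called 459 higher and 737 lower, and the housekeeping scaling 1761 and 926, against 964 and 1595.

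Leaving out 1 pair gave 1 to 2 receptors higher and 0 to 1 lower, 0 to 1 genes of the fibrinogen domain higher, 0 to 1 assembly genes higher, 1 to 2 acute-phase genes lower and 1 to 3 neighbours higher. For Fgb with Fgg it gave r of 0.889 to 0.994 in Lu-neg, 0.799 to 0.966 in Lu-pos and 0.821 to 0.981 over pair differences. For Fga with Fgg in Lu-neg r ran from 0.534 to 0.93, and for Fga in Lu-neg against Lu-pos from -0.702 to 0.408, values below background in which 1 call each appeared, without pool 7. For Fgb with Fgg in Lu-neg, Lu-pos and pair differences, Spearman's rho (0.893, 0.714 and 0.721), r without the 2 farthest samples (0.837, 0.673 and 0.595) and r centred within the pool sets (0.929, 0.964 and 0.963) did not pass after adjustment. The number of arrays limits all of these, and the cause of each change was not tested.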
